A study of Arabidopsis thaliana with 12 samples.

Results

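Seedlings of the Arabidopsis thaliana double mutant gun1 fug1 were compared with wild-type seedlings (Col-0) by RNA sequencing. The libraries were chosen by their genotype label: 3 of gun1 fug1 and 3 of wild type, of 12 libraries in all, the other 6 being 3 each of the single mutants gun1 and fug1. All seedlings were 4 d old and grew on agar with 1% sucrose, first for 2 d of darkness at 4 °C and then at 22 °C in days of 16 h light and 8 h dark, with white light at an intensity of 100 µmol per m2 and s. The labels give the material as seedlings, do not name the alleles of gun1 and fug1, and do not say that the 3 libraries of a genotype come from separate cultures, so p-values measure the spread between these samples, which may be technical. The comparison asks which transcripts differ from wild type when both genes are mutated.

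GUN1 is a plastid protein with pentatricopeptide repeats, known for its role in how plastids signal to the nucleus. FUG1 is a translation initiation factor of the plastid. Plastid ribosomes are built from proteins encoded in part in the plastid and in part in the nucleus. Nuclear-encoded ones, like most plastid proteins, are made in the cytosol and enter through the import machinery of the envelope. Inside, chaperones of the Hsp70, Hsp90 and Cpn60 families fold proteins and the Clp and FtsH proteases remove them. Plastid genes are read by a plastid-encoded RNA polymerase, which serves mainly photosynthesis genes, and by nuclear-encoded polymerases, which serve genes such as those of the plastid-encoded polymerase itself.

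Total counts ranged from 8519197 to 12360838 per library, and gun1 fug1 3 stood apart. In it, 97.5% of the nuclear counts fell on 12 loci that share sequence with 7SL RNA, the RNA of the signal recognition particle, which guides ribosomes to the endoplasmic reticulum. The same loci took 29.4% and 24.5% in gun1 fug1 1 and 2, against 4.66%, 5.94% and 5.0% in wild type 1, 2 and 3, and 13.3% to 23.5% in the single mutants. Only 133975 nuclear counts lay elsewhere in gun1 fug1 3, against 1244880 to 3666587 in the other 11 libraries. The median count of a tested gene was 2 in it, against 18 to 63 in the others. Levels are given as CPM, counts scaled to a common library size after TMM, a trimmed mean of ratios between libraries. In gun1 fug1 3 a single count was worth 1.2 CPM, against 0.0396 to 0.136 CPM elsewhere, so its levels of nuclear genes move in steps of that size. This library was kept, and results are given without it as well.

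**Figure D1:**
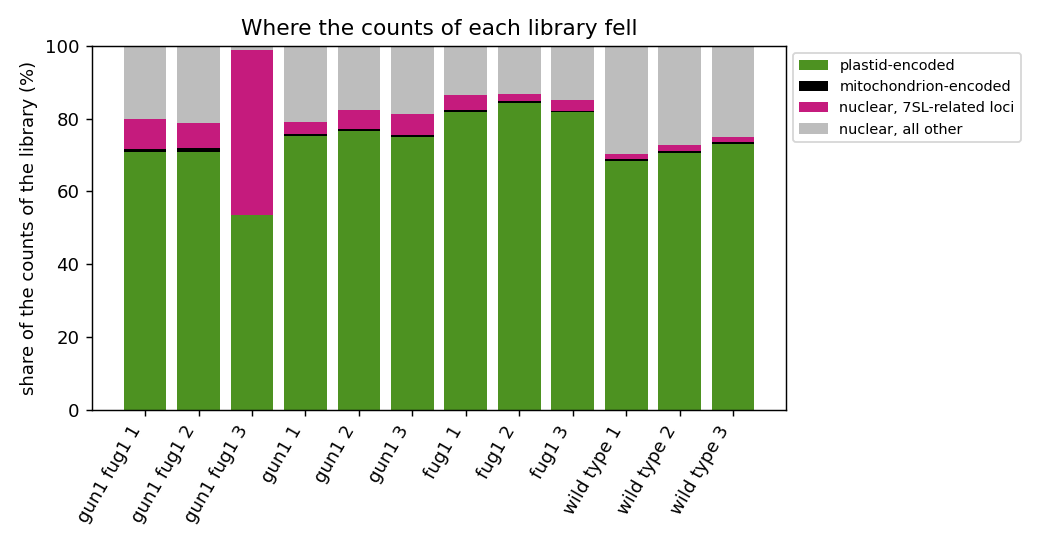
Share of the counts of each library (%, y axis) that fell on plastid-encoded, mitochondrion-encoded, 7SL-related and all other nuclear genes, for the 12 libraries (x axis). In gun1 fug1 3 the 7SL-related loci took 97.5% of the nuclear counts, where wild-type libraries had 4.66% to 5.94%.

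The 7SL-related loci included genes named for other products. The locus of RR3 (AT2G41310, a cytokinin response regulator also called ARR8) overlaps the antisense locus AT2G09250, and a stretch of 7SL-like sequence lies inside both, at chr2:17224516-17224755 (TAIR10.1). The 2 loci carried nearly equal counts, AT2G09250 98.3% of those of RR3 over the 6 libraries of gun1 fug1 and wild type. Reads counted at both loci would enter the library totals and the shares above at each of them. Whether reads were so counted was not tested. BXL3 (AT5G09730, annotated as a beta-xylosidase) carries such a stretch at its 3′ end, at chr5:3014935-3015236, on the strand opposite to the gene. Identity with the 7SL end of the AT7SL-1 locus (AT4G02970) ranged from 67.9% to 91.4% among the other loci. The first 30 bases of the match are shown for AT7SL-1, RR3 with AT2G09250, BXL3, AT2G31141 and AT4G04565. They show what RR3 and BXL3 share with 7SL RNA. AT4G04595 had 478936 CPM in gun1 fug1 3, against 346930 CPM for BXL3. It is not shown, as its match starts at base 3 of the 7SL end of AT7SL-1. Capitals mark the 20 bases that are identical in all the loci shown.
AT7SL-1, chr4:1319150-1319179, minus strand: CTaaGTAACaataGCTTGTaAcCCatGTGG
AT2G09250 and RR3, chr2:17224516-17224545, plus strand: CTcaGTAACgcggGCTTGTgAtCCaaGTGG
BXL3, chr5:3014935-3014964, plus strand: CTatGTAACgagaGCTTGTaAcCCaaGTGG
AT2G31141, chr2:13272128-13272157, minus strand: CTaaGTAACgagaGCTTGTgAcCCgaGTGG
AT4G04565, chr4:1472732-1472761, plus strand: CTaaGTAACatgaGCTTGTaAcCCatGTGG

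RR3 had 249667, 164938 and 1801093 counts in gun1 fug1 1, 2 and 3, against 53878, 55705 and 33844 counts in wild type 1, 2 and 3. AT7SL-1 had 139988, 82298 and 230019 counts in gun1 fug1 1, 2 and 3, against 25794, 23688 and 29944 counts in wild type 1, 2 and 3, and BXL3 had 59109, 39552 and 289191 counts in gun1 fug1 1, 2 and 3, against 11793, 10463 and 7938 counts in wild type 1, 2 and 3. All 3 gun1 fug1 libraries were higher than all wild-type libraries at each of the 3 loci, and gun1 fug1 3 was the highest. Their log2 fold changes were 8.30 ± 2.01, adjusted p = 0.0191 for RR3, 6.22 ± 1.36, adjusted p = 0.0111 for AT7SL-1 and 7.92 ± 1.90, adjusted p = 0.0196 for BXL3 (± SE, edgeR's quasi-likelihood test with Benjamini-Hochberg adjustment, as for all adjusted p below). The adjustment was over all genes tested in the fit, 15371 with all libraries and 16201 without gun1 fug1 3. Without gun1 fug1 3 they were 2.88, adjusted p = 9.17e-06, then 2.80, adjusted p = 1.26e-07, and 3.07, adjusted p = 2.3e-06, so that all 3 stayed called at smaller folds. With gun1 fug1 3 in, leaving out any 1 wild-type library ended the calls of RR3 and BXL3 (adjusted p up to 0.0659 and 0.073). Reads of RR3 and BXL3 messenger RNA cannot be told apart from 7SL-like reads in these counts, and neither gene is counted below as a response of its own pathway.

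The loci of U2 snRNA, the spliceosomal RNA that pairs with the branch point of introns, were higher too. All 7 tested U2 loci hold the same 40 bases of the start of U2 RNA, shown because copies this alike share reads.
U2.5 (AT5G09585), chr5:2975014-2975208, plus strand, first bases: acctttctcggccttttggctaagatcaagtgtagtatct
U2.5 had 275, 296 and 2085 counts in gun1 fug1 1, 2 and 3, against 71, 75 and 67 counts in wild type 1, 2 and 3, a log2 fold change of 7.91 ± 2.05, adjusted p = 0.0275, and 2.79, adjusted p = 0.013 without gun1 fug1 3. The other 6 U2 loci had 4.40 to 8.59 with that library and 2.70 to 3.75 without it, and all 7 were called in both fits. Their calls with gun1 fug1 3 in ended without any 1 of the wild-type libraries (adjusted p up to 0.138). That of U2.2 ended in 10 of 12 fits without 1 library. These included fits without gun1 2, gun1 3, any fug1 library, gun1 fug1 1 (0.0544) or gun1 fug1 2 (0.107). U2.1 and U2.3 overlap other loci that had 94.0% and 92.6% of their counts. Among small nucleolar RNAs, which guide the modification of ribosomal RNA, 22 of 44 tested were higher and 0 lower (median log2 fold change 1.84), and 33 of 52 and 0 without gun1 fug1 3 (median 1.72). The median over all tested genes was -0.03. Such RNAs mostly lack a poly(A) tail, and the labels do not say how RNA was selected for the libraries.

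The mutated genes were both lower in gun1 fug1. GUN1 (AT2G31400, chromosome 2, 13386954 to 13390854, minus strand) had 7.89, 10.7 and 8.40 CPM in gun1 fug1 1, 2 and 3, against 38.7, 36.4 and 29.6 CPM in wild type 1, 2 and 3, with a log2 fold change of -1.93 ± 0.22, adjusted p = 4.12e-06. FUG1 (AT1G17220, chromosome 1, 5885007 to 5890500, plus strand) had 9.94, 8.45 and 15.6 CPM in gun1 fug1 1, 2 and 3, against 44.4, 35.9 and 26.3 CPM in wild type 1, 2 and 3, with a log2 fold change of -1.82 ± 0.35, adjusted p = 0.0018. No gun1 fug1 library reached the lowest wild-type library at either gene, and without gun1 fug1 3 the values were -1.92, adjusted p = 1.43e-06 for GUN1 and -1.95, adjusted p = 0.00529 for FUG1. Transcript of both genes was thus still counted in the double mutant.

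Of 15371 genes tested, 1843 were higher in gun1 fug1 than in wild type (12%) and 1519 lower (9.88%), 21.9% in all. Counts of called members of the gene lists below are to be read beside these shares. An absolute log2 fold change of at least 1 was reached by 1252 of the higher and 1051 of the lower genes. The levels of the 3 libraries of each genotype did not overlap for 5331 genes (34.7%). Without gun1 fug1 3, 2349 of 16201 genes were higher (14.5%) and 1758 lower (10.9%), and 3275 genes (21.3%) were called in the same direction in both fits, 1797 higher (11.7%) and 1478 lower (9.62%). No called gene changed sign, 87 were called only with gun1 fug1 3 in and 832 only without it. Higher and lower calls fell to 986 and 1008 without wild type 1, to 928 and 976 without wild type 2, to 1129 and 781 without gun1 fug1 1, and to 1034 and 708 without gun1 fug1 2. With library totals in place of TMM, a scaling chosen after seeing the data, the median of all genes shifted to -1.17 and 43 genes were higher and 131 lower, so that 24.7% of called genes were higher, against 54.8%. The fits of the single mutants share the wild-type libraries with this comparison, and gave 541 higher (3.52%) and 372 lower genes (2.42%) for gun1, 5.94% in all, and 1528 (9.94%) and 1211 (7.88%) for fug1, 17.8% in all.

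**Figure D2:**
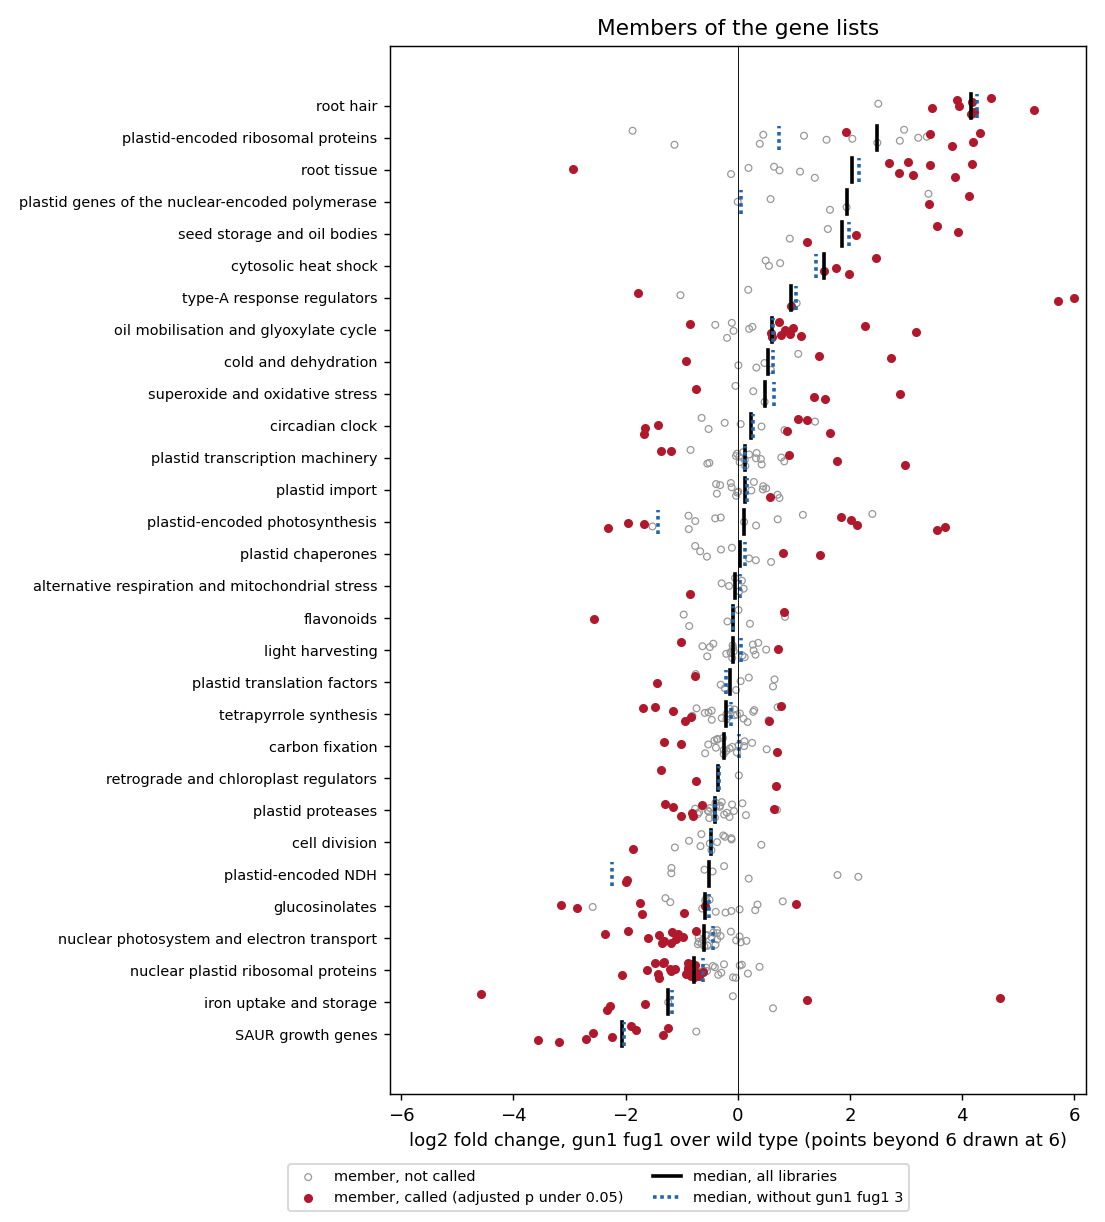
Log2 fold change of gun1 fug1 over wild type (x axis) for every tested member of 30 gene lists (y axis), filled where the adjusted p was under 0.05, with the median of each list over all libraries (black) and without gun1 fug1 3 (blue, dotted). Root hair genes had the highest median (4.15) and SAUR genes the lowest (-2.07), and the lists of plastid-encoded genes moved most without gun1 fug1 3. The type-A response regulators include RR3, a 7SL-related locus.

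Among chaperone genes, 4 of 7 tested cytosolic heat shock genes rose in gun1 fug1 against wild type and 0 fell (median log2 fold change 1.54), while 0 were called in either single mutant against wild type. A further 10 listed heat shock genes had too few counts to be tested. HSP90.1 (AT5G52640, chromosome 5, 21352557 to 21355147, plus strand), the stress-induced cytosolic Hsp90, had 11.5, 3.81 and 4.80 CPM in gun1 fug1 1, 2 and 3, against 1.58, 1.64 and 0.725 CPM in wild type 1, 2 and 3. All 3 gun1 fug1 libraries lay above all wild-type libraries, with gun1 fug1 1 the highest by far. Its log2 fold change was 2.47 ± 0.39, adjusted p = 0.000183, and 2.53, adjusted p = 0.000314 without gun1 fug1 3. In the single mutants it had 1.72, 1.03 and 0.842 CPM in gun1 and 1.36, 0.834 and 1.26 CPM in fug1. The double mutant was higher than each: 2.60 ± 0.41, adjusted p = 0.0016 against gun1, and 2.68 ± 0.44, adjusted p = 0.00649 against fug1. Without gun1 fug1 1 the adjusted p was 0.0955 against gun1 and 0.289 against fug1, so neither call held, and that against fug1 also ended without fug1 2 (0.0657) or fug1 3 (0.0597).

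HSP70 (AT3G12580), a cytosolic Hsp70 induced by heat, had 50.7, 23.9 and 29.99 CPM in gun1 fug1 and 13.3, 8.18 and 10.1 CPM in wild type. It rose by 1.76 ± 0.29, adjusted p = 0.00041, and was higher than in gun1 (1.27 ± 0.29, adjusted p = 0.022) and in fug1 (1.67 ± 0.30, adjusted p = 0.0163). Its levels were 20.6, 12.4 and 11.1 CPM in gun1 and 13.9, 10.6 and 9.29 CPM in fug1. Whether its calls against the single mutants hold without gun1 fug1 1, the highest library, was not checked. Hsp70b (AT1G16030), another inducible Hsp70, had 2.81, 0.929 and 2.40 CPM in gun1 fug1 and 0.436, 0.633 and 0.391 CPM in wild type. Its rise of 1.98 ± 0.47, adjusted p = 0.00433 lost the call without gun1 fug1 1 (adjusted p = 0.227). HSP101, the disaggregase of the cytosol, rose by 1.54 ± 0.42, adjusted p = 0.0119. HSA32, MBF1C, which overlaps a gene with 532.1% of its counts, and ROF1 had 0.50, 0.56 and 0.76 and did not pass. Leaving out gun1 fug1 1 reduced the higher heat shock genes to 2, and without wild type 1, in whose fit more of the listed genes had enough counts to be tested, 7 were higher, as without wild type 3, any gun1 or fug1 library, or gun1 fug1 3.

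Within the plastid, 2 of 10 tested chaperone genes rose against wild type, and 0 fell (median 0.049). Cpn60beta2 (AT3G13470, chromosome 3, 4389215 to 4393015, plus strand), a beta subunit of the plastid chaperonin, had 30.3, 25.4 and 15.6 CPM in gun1 fug1 1, 2 and 3, against 11.2, 7.18 and 9.32 CPM in wild type 1, 2 and 3. The genotypes did not overlap. It rose by 1.47 ± 0.23, adjusted p = 9.94e-05, against levels of 11.6, 8.32 and 7.58 CPM in gun1 and 8.56, 7.74 and 9.39 CPM in fug1. cpHsc70-1 (AT4G24280), a stromal Hsp70, had 69.3, 61.5 and 74.4 CPM in gun1 fug1 and 38.2, 38.7 and 39.3 CPM in wild type and rose by 0.81 ± 0.20, adjusted p = 0.00618. That call ended without wild type 1 or 2 (adjusted p = 0.0543 and 0.0534). Against wild type, 0 of these genes were higher in gun1 or fug1, while 1 was lower in gun1 and 4 in fug1. Against gun1, 4 of 10 chaperone genes were higher, where 1.61% of all genes were called higher, and against fug1 4 of 10, where 0.163% of all genes were. They were in both cases Cpn60beta2 (1.47 against gun1 and 1.58 against fug1), cpHsc70-1 (1.06 and 1.06), the plastid Hsp90 gene CR88 (AT2G04030; 1.37 and 1.43) and CPN60B (AT1G55490; 1.42 and 1.56). CPN60B overlaps ZKT, whose counts were 179.9% of its own, so its reads may be those of ZKT. CR88 had 0.32 ± 0.25, adjusted p = 0.371 against wild type, and CPN60B 0.59 ± 0.27, adjusted p = 0.117, and neither passed that test. CLPB3, the plastid disaggregase gene, had -0.67 ± 0.34, adjusted p = 0.179 against wild type.

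Of 16 tested import genes, TIC110 (AT1G06950), a channel and scaffold component of the inner envelope, rose by 0.58 ± 0.19, adjusted p = 0.0325, and 0 fell. TIC110 had 19.1, 17.2 and 22.8 CPM in gun1 fug1 and 13.2, 13.0 and 11.7 CPM in wild type. This call ended in 6 of 12 fits without 1 library (without wild type 1, 2 or 3, gun1 1, gun1 fug1 1 or gun1 fug1 2; adjusted p up to 0.134), and without gun1 fug1 3 there were 3 calls, TIC110, TOC75-III and TOC159. Against gun1, 4 import genes were higher, TOC33 (1.25 ± 0.30, adjusted p = 0.0239), TIC56 (1.13 ± 0.22, adjusted p = 0.00584), TIC110 (0.99 ± 0.20, adjusted p = 0.00783) and emb1211, which encodes TIC100 (0.87 ± 0.23, adjusted p = 0.0368). Against fug1, 0 of 16 passed.

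**Figure D3:**
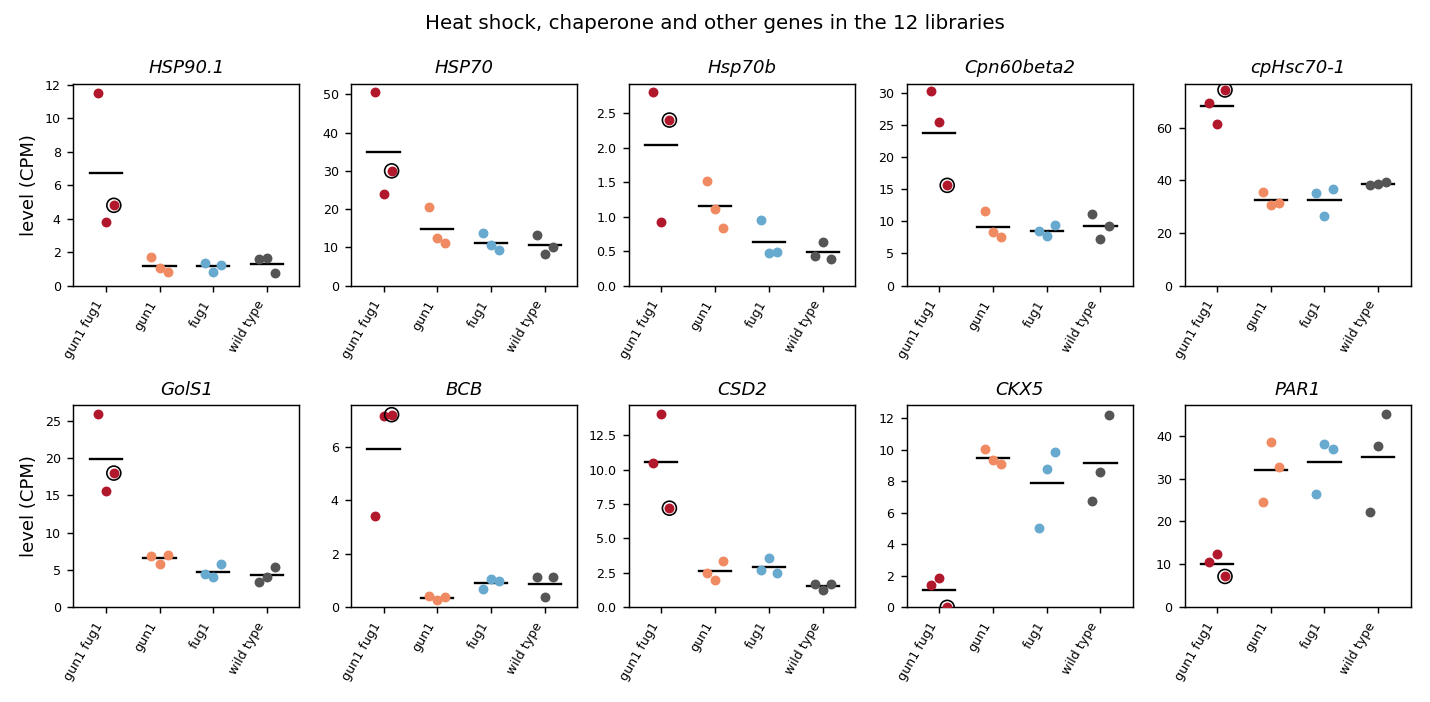
Level (CPM, y axis) of 10 genes in each library of gun1 fug1, gun1, fug1 and wild type, with bars at the mean of the 3 libraries and a circle round gun1 fug1 3. HSP90.1 lay between 3.81 and 11.5 CPM in gun1 fug1 and under 2 CPM elsewhere, Cpn60beta2 between 15.6 and 30.3 CPM, and CKX5 at 0 to 1.86 CPM.

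Nuclear genes for plastid ribosomal proteins were lower in gun1 fug1. Of 39 tested, 24 fell and 0 rose (median log2 fold change -0.77), beside 8 lower in gun1 and 15 lower in fug1. Without gun1 fug1 3, 22 fell and 1 rose (median -0.62), and without gun1 fug1 1, 15 fell. PSRP3/1 (AT1G68590), a plastid-specific protein of the small subunit, had 3.87, 4.46 and 3.6 CPM in gun1 fug1 1, 2 and 3, against 16.7, 20.4 and 14.5 CPM in wild type 1, 2 and 3. The genotypes were well apart, and it fell, at -2.06 ± 0.29, adjusted p = 4.98e-05. GHS1 (AT3G27160), which encodes protein S21, had 16.2, 11.7 and 9.60 CPM in gun1 fug1 and 40.9, 46.6 and 35.2 CPM in wild type and fell, at -1.62 ± 0.26, adjusted p = 0.000135. Others of the large subunit were emb2184 (L31; -1.42 ± 0.25), RPL19B (-1.48 ± 0.28), RPL24 (-1.34 ± 0.28) and RPL29 (-1.31 ± 0.25), all of which fell. RPL4, PSRP6 and RPL34 were among the 15 that did not pass, at -0.03, 0.07 and -0.08. Of 10 translation factors tested, IF1 (-1.44 ± 0.47, adjusted p = 0.0302), an initiation factor that acts beside FUG1, and the GTPase LEPA (-0.76 ± 0.24, adjusted p = 0.0248) fell. Both calls ended without wild type 1 or 2 and without gun1 fug1 1 or 2 (adjusted p up to 0.181 and 0.102). In the single mutants 4 (gun1) and 5 (fug1) of these 10 were lower. The elongation factor SCO1 had -0.03 ± 0.26 in gun1 fug1 against wild type, and emb2726, an elongation factor Ts, was higher than in gun1 (1.35 ± 0.25, adjusted p = 0.00426) and fug1 (1.13 ± 0.25, adjusted p = 0.0479).

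Photosynthesis genes of the nucleus were lower in part. Of 34 genes of photosystems, electron transport and ATP synthase, 12 fell and 0 rose (median -0.61, and 14 fell with a median of -0.44 without gun1 fug1 3). ATPD (AT4G09650, chromosome 4, 6100714 to 6101864, plus strand), the delta subunit of the plastid ATP synthase, had 30.4, 33.7 and 12 CPM in gun1 fug1 1, 2 and 3, against 147, 144 and 129 CPM in wild type 1, 2 and 3. Every gun1 fug1 library was far below every wild-type library, and the fall was -2.36 ± 0.32, adjusted p = 3.73e-05, and -2.13 without gun1 fug1 3. PSAN (AT5G64040), a lumenal subunit of photosystem I, had 59.7, 64.1 and 78.0 CPM in gun1 fug1 and 262, 289 and 221 CPM in wild type and fell, at -1.95 ± 0.28, adjusted p = 4.19e-05. PGR5 (-1.60 ± 0.26), needed for cyclic electron flow, ATPC1 (-1.41 ± 0.26), the gamma subunit of ATP synthase, and PSAK (-1.35 ± 0.28) of photosystem I fell as well. ATPD was also lower than in gun1 (-1.59 ± 0.31, adjusted p = 0.00827). The plastocyanin gene PETE1 and the photosystem I genes PSAL and PSAF had -0.37, -0.37 and 0.05, with no call. Genes of light-harvesting proteins stood close to wild type: of 20, LHCB3 fell (-1.01 ± 0.29, adjusted p = 0.0155) and LHCB4.3 rose (0.71 ± 0.23, adjusted p = 0.0257), with a median of -0.09. Both calls ended without wild type 1, wild type 2 or gun1 fug1 2, and that of LHCB4.3 also without wild type 3 or gun1 fug1 1. LHCB3 had 492, 458 and 338 CPM in gun1 fug1 and 981, 983 and 639.8 CPM in wild type, and several other light-harvesting genes are near-identical copies that share reads. Among 21 genes of carbon fixation, SBPASE (-1.01 ± 0.23) of the Calvin cycle and its regulator CP12-2 (-1.31 ± 0.26) fell and PGK2 (0.70 ± 0.20), a phosphoglycerate kinase, rose, and the other 18 did not pass. The call of PGK2 ended without any 1 of the wild-type libraries, gun1 fug1 1 or gun1 fug1 2 (adjusted p up to 0.1).

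**Figure D4:**
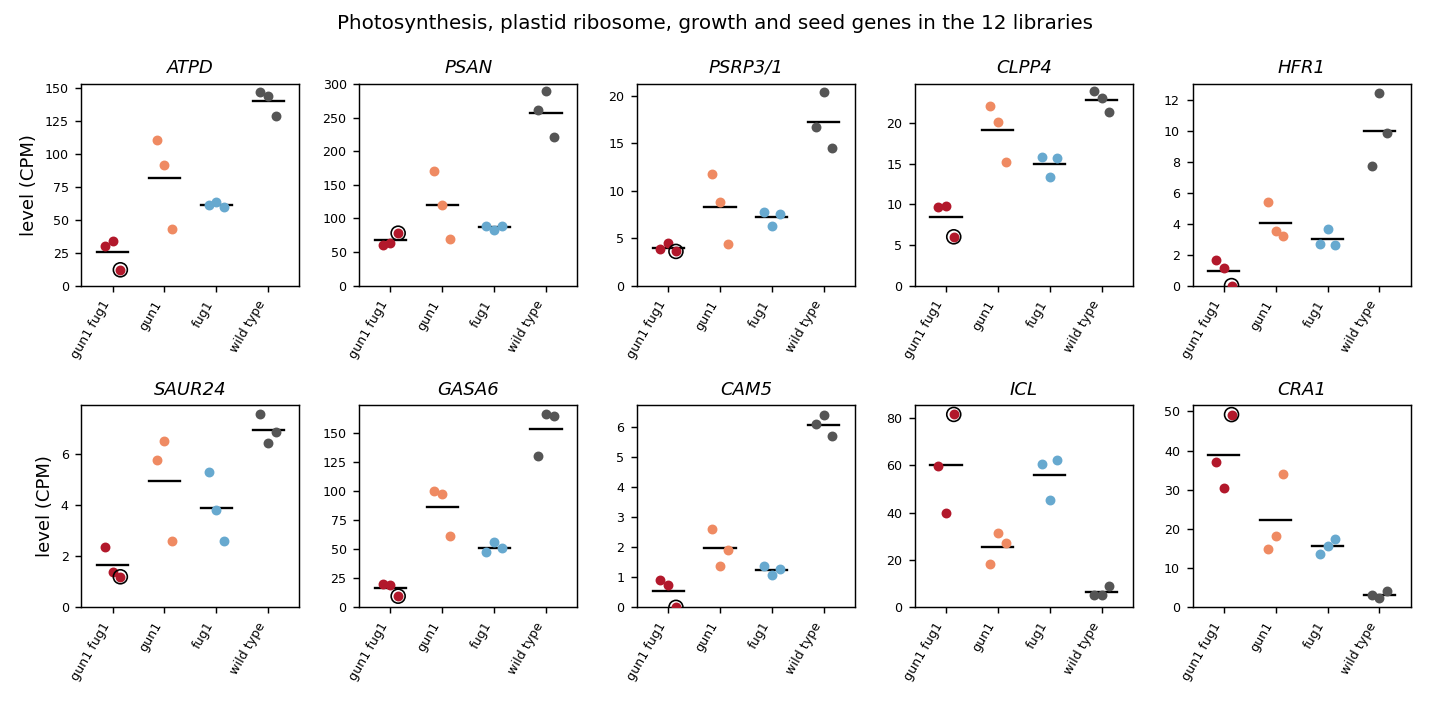
Level (CPM, y axis) of 10 genes in each library of gun1 fug1, gun1, fug1 and wild type, with bars at the mean of the 3 libraries and a circle round gun1 fug1 3. ATPD, PSAN, PSRP3/1, HFR1, GASA6 and CAM5 had lower means in gun1 fug1 than in either single mutant or wild type, and ICL and CRA1 had higher levels in every mutant library than in any wild-type library.

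In tetrapyrrole synthesis, the route to chlorophyll and haem, 5 of 29 genes fell and 2 rose. Of all tested genes, 9.88% were lower and 12% higher. In the single mutants 3 (gun1) and 7 (fug1) of the 29 were lower, and 0 and 1 higher. CHLI1 (AT4G18480), a subunit of magnesium chelatase, had 24.8, 26.1 and 15.6 CPM in gun1 fug1 and 55.7, 55.4 and 45.8 CPM in wild type and fell, at -1.16 ± 0.24, adjusted p = 0.00165. Its paralogue CHLI2 fell (-1.47 ± 0.33), as did TED4 (-0.83 ± 0.22), the haem oxygenase also called HY1, PCB2 (-1.69 ± 0.47) and POR C (-0.94 ± 0.25). GSA1, of the first steps of the route, rose by 0.78 ± 0.23, adjusted p = 0.017, a call that ended without wild type 1, wild type 2, gun1 fug1 1 or gun1 fug1 2 (adjusted p up to 0.153). The other riser was ALB1 (0.57 ± 0.19, adjusted p = 0.0394), another magnesium chelatase subunit. GUN4 and GUN5, which are among the genes named with GUN1 in screens for plastid signalling but not all of them, had -0.52 ± 0.27 and -0.14 ± 0.27 and did not pass. GUN4 overlaps GCN2, with 106.5% of its counts. Without gun1 fug1 2, which ended the call of TED4 (adjusted p = 0.069), 2 tetrapyrrole genes fell, and without wild type 1, wild type 2, gun1 fug1 1 or gun1 fug1 2, 0 rose.

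In the plastid transcription machinery, PRIN2 stood out. PRIN2 (AT1G10522), needed for full activity of the plastid-encoded polymerase, had 16.2, 17.0 and 15.6 CPM in gun1 fug1 1, 2 and 3, against 1.98, 2.32 and 1.90 CPM in wild type 1, 2 and 3. All gun1 fug1 libraries were at 15 CPM or more and no wild-type library reached 3, a log2 fold change of 2.99 ± 0.48, adjusted p = 0.00182. It was called higher than wild type in each single mutant too, at 6.12, 19.6 and 18.1 CPM in gun1 and 15.9, 5.36 and 8.04 CPM in fug1. Of 22 genes of this machinery, PTAC12 (1.78 ± 0.54) and PTAC5 (0.92 ± 0.28) also rose and 2 fell, among them PTAC7 (-1.20 ± 0.40). These 3 rises and 2 falls stand beside 21.9% called among all tested genes. PTAC12 had 67 counts in the gun1 fug1 and wild-type libraries together, against 269 in GPS1, which it overlaps. The calls of PTAC12, PTAC5 and PTAC7 each ended without wild type 1, wild type 2 or gun1 fug1 1, and that of PTAC7 also without gun1 fug1 2. Of 28 protease genes, 6 fell and 1 rose (median -0.40), beside 9.88% lower and 12% higher among all tested genes. CLPP4 (AT5G45390), a subunit of the Clp protease core, had 9.71, 9.75 and 6 CPM in gun1 fug1 and 23.9, 23.1 and 21.3 CPM in wild type and fell, at -1.30 ± 0.21, adjusted p = 0.000178, also against gun1 (-1.05 ± 0.21, adjusted p = 0.00883). CLPP6 (-1.01 ± 0.23), the adaptor gene CLPS1 (-0.81 ± 0.22) and VAR1 (-0.64 ± 0.21), an FtsH protease, fell, and HSP93-III (0.65 ± 0.21), the Clp chaperone also called CLPC2, rose. The calls of CLPS1 and HSP93-III ended without gun1 fug1 1 or gun1 fug1 2, and that of HSP93-III also without wild type 2 or 3. Lower protease genes numbered 3 without wild type 2, and 2 without gun1 fug1 1 or gun1 fug1 2. Among 4 tested regulators, PTM (-0.74 ± 0.23) and GNC (-1.36 ± 0.47) fell and GPRI1, also called GLK1 (0.69 ± 0.25), rose. Without 1 library, the call of PTM ended in 4 of 12 fits (without wild type 1 or 2, gun1 fug1 1 or gun1 fug1 2; adjusted p up to 0.129) and that of GNC in 5 (without wild type 1 or 2, fug1 1, gun1 fug1 2 or gun1 fug1 3; up to 0.243). That of GPRI1 ended in 10 of 12 (up to 0.185), and in 21 of 26 alternatives in all, among them RLE factors, DESeq2 and organelle genes left out.

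Plastid-encoded genes depended on gun1 fug1 3, whose plastid counts are large beside its nuclear counts outside the 7SL-related loci. psbA, which encodes the D1 protein of photosystem II, had 5128063, 4036669 and 4773037 counts in gun1 fug1 1, 2 and 3, against 3775707, 3484631 and 3879845 counts in wild type 1, 2 and 3. Its log2 fold change was 3.56 ± 0.86, adjusted p = 0.00525, and 1.06, adjusted p = 0.00176 without gun1 fug1 3. The call of psbA ended with only the 2 genotypes in the fit. It also ended under library totals, with or without gun1 fug1 3. Over 23 alternatives its log2 fold change went down to 0.42 and its adjusted p up to 0.696. All plastid-encoded genes together took 70.9%, 70.8% and 53.4% of the counts of gun1 fug1 1, 2 and 3, against 68.5%, 70.6% and 73.1% in wild type 1, 2 and 3. Of 19 plastid-encoded photosynthesis genes, 5 rose and 3 fell with that library (median 0.11), and 3 rose and 10 fell without it (median -1.41). rbcL, the large subunit of Rubisco, went with that library: its log2 fold change was 2.02 ± 0.68, adjusted p = 0.0363 with it and 0.15, adjusted p = 0.67 without it. With gun1 fug1 3 in, leaving out wild type 1, 2 or 3 left 1, 1 and 2 of the 5 rises, and leaving out gun1 fug1 1 or 2 left 1 of the 3 falls. psaA, of the core of photosystem I, fell in both, at -1.96 ± 0.42, adjusted p = 0.00205 and -2.03, adjusted p = 0.00906, with 2796, 1736 and 2584 CPM in gun1 fug1 1, 2 and 3, against 10095, 10326 and 7306 CPM in wild type 1, 2 and 3. It was also lower than in gun1 (-1.60 ± 0.42, adjusted p = 0.035). The ATP synthase genes atpB, atpE and atpI had -0.76, 0.11 and -1.52 with gun1 fug1 3 and fell without it, at -2.08, -2.20 and -2.79. Of 10 NDH genes, ndhJ (-1.99 ± 0.49) and ndhK (-1.97 ± 0.58) fell, and 4 fell without gun1 fug1 3 (medians -0.52 and -2.24). ndhK lost its call without wild type 1, wild type 2, gun1 fug1 1 or gun1 fug1 2 (adjusted p up to 0.105).

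Among plastid-encoded ribosomal protein genes more were higher than lower. Of 17, 5 rose and 0 fell (median 2.49), and without gun1 fug1 3, 6 rose and 2 fell (median 0.74). rps19, of the small subunit, had 27.4, 22.9 and 56.4 CPM in gun1 fug1 1, 2 and 3, against 8.79, 9.34 and 6.58 CPM in wild type 1, 2 and 3. It was higher in every gun1 fug1 library than in every wild-type library, at 1.94 ± 0.27, adjusted p = 4.39e-05, and 1.61, adjusted p = 8e-06 without gun1 fug1 3. It was also higher than in gun1 (2.12 ± 0.27, adjusted p = 0.000176). The genes rps3, rps16, rpl22 and rpl33 rose in both fits, at 1.69, 2.38, 1.96 and 1.32 without gun1 fug1 3. With it in, 1 ribosomal gene stayed called without any 1 wild-type library, and 9 were called without gun1 fug1 2. Among 7 genes read by nuclear-encoded polymerase, rpoA and rpoB, subunits of the plastid-encoded polymerase, rose, at 4.13 ± 1.04 and 3.41 ± 0.97, and at 1.67 and 1.2 without gun1 fug1 3, while clpP fell only without it (-0.82, adjusted p = 0.0133). With gun1 fug1 3 in, the calls of rps16, rpl22, rpoA and rpoB ended without any 1 of the wild-type libraries (adjusted p up to 0.109), and that of rpoB also without any 1 of the single-mutant libraries (up to 0.0545).

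**Figure D5:**
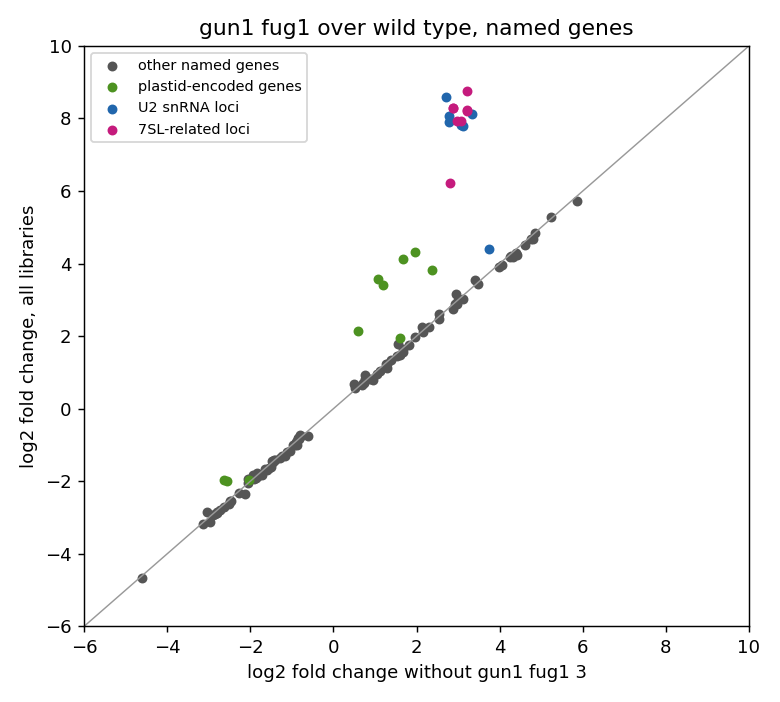
Log2 fold change of gun1 fug1 over wild type for each named gene, with all libraries (y axis) and without gun1 fug1 3 (x axis), with a line where both are equal. The 7SL-related loci lay 3.42 to 5.54 above the line and the U2 snRNA loci 0.65 to 5.89 above it. Plastid-encoded genes lay up to 2.5 above it, and the 96 other named genes within 0.24 of it.

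Growth genes that respond to auxin, light and touch were among the largest falls. SAUR genes, small genes that promote cell expansion on auxin, fell in 9 of 10 tested members (median -2.07), beside 2 in gun1 and 4 in fug1. Without gun1 fug1 3, 9 of the 10 fell as well (median -2.02). SAUR29 (AT3G03820) had 0.683, 0.186 and 0 CPM in gun1 fug1 and 4.56, 4.43 and 3.12 CPM in wild type and fell, at -3.19 ± 0.44, adjusted p = 2.84e-05. SAUR24 (AT5G18080) had 2.35, 1.39 and 1.2 CPM in gun1 fug1 and 7.61, 6.44 and 6.86 CPM in wild type and fell, at -1.90 ± 0.35, adjusted p = 0.000661. The 9 lie in clusters of close copies that may share reads. Against gun1, SAUR22 (-1.64 ± 0.30, adjusted p = 0.00459), SAUR24 and SAUR27 were lower, and against fug1 0 of the 10 passed. HFR1 (AT1G02340), a transcription factor of light and shade responses, had 1.67, 1.11 and 0 CPM in gun1 fug1 1, 2 and 3, against 7.72, 12.5 and 9.88 CPM in wild type 1, 2 and 3. It fell, at -2.89 ± 0.34, adjusted p = 4.33e-06. GASA6 (AT1G74670), a gibberellin-regulated gene of cell elongation, had 20.3, 18.8 and 9.60 CPM in gun1 fug1 1, 2 and 3, against 129.6, 166 and 164 CPM in wild type 1, 2 and 3. It fell, at -3.13 ± 0.27, adjusted p = 1.24e-07, and was also lower than in gun1 (-2.30 ± 0.26, adjusted p = 6.38e-05). RTFL18 (AT5G16023), a small peptide gene, had 0.0759, 0.279 and 0 CPM in gun1 fug1 and 2.85, 3.69 and 6.53 CPM in wild type, or 1, 3 and 0 counts in gun1 fug1, and fell, at -4.66 ± 0.62, adjusted p = 2.62e-05. The calmodulin gene CAM5 (-2.91 ± 0.35) and the touch-induced calmodulin-like TCH2 (-2.86 ± 0.70) fell, the second with a call that ended without gun1 fug1 1 or 2. ESM1 (-2.86 ± 0.34), RGF9 (-2.79 ± 0.60), a peptide of root meristem growth, and the thionin gene THI2.2 (-2.63 ± 0.57) completed, with SAUR27 (-2.70 ± 0.54), the 10 largest falls among genes with a symbol, no overlap between the genotypes, a call with and without gun1 fug1 3 and wild-type libraries averaging 50 counts or more. THI2.2 lost its call without gun1 fug1 1 (adjusted p = 0.052). Among 13 cell division genes, 1 fell, the cyclin gene CYCA1;1 (-1.86 ± 0.63, adjusted p = 0.0373), a call that ended without wild type 1, wild type 2 or gun1 fug1 2.

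Seed storage genes and genes that use up seed oil were higher in gun1 fug1 than in wild type. CRA1 (AT5G44120), the cruciferin storage protein, had 37.1, 30.4 and 49.2 CPM in gun1 fug1 1, 2 and 3, against 3.05, 2.27 and 4.18 CPM in wild type 1, 2 and 3. It rose by 3.56 ± 0.31, adjusted p = 2.04e-07. OLEO1 (AT4G25140), the oleosin of oil bodies, had 3.64, 3.44 and 2.40 CPM in gun1 fug1 and 0.475, 0.528 and 1.45 CPM in wild type and rose by 2.11 ± 0.37, adjusted p = 0.000393. Of 6 seed genes tested 4 rose, beside 5 in each single mutant. Without gun1 fug1 1, 2 rose, and without gun1 fug1 3, 5 rose. PER1, a peroxiredoxin gene, rose by 1.23 ± 0.30 but not without gun1 fug1 1 (adjusted p = 0.267). The summed level of the 6 was 76.0, 59.2 and 75.6 CPM in gun1 fug1, against 10.3, 7.65 and 18.7 CPM in wild type, with 45.2, 60.1 and 88.9 CPM in gun1 and 40.9, 55.1 and 47.2 CPM in fug1. ICL (AT3G21720), the isocitrate lyase that lets oil carbon become sugar, had 59.7, 39.8 and 81.6 CPM in gun1 fug1 1, 2 and 3, against 5.27, 5.33 and 8.87 CPM in wild type 1, 2 and 3. It rose by 3.17 ± 0.29, adjusted p = 2.04e-07, and was higher than in gun1 (1.18 ± 0.27, adjusted p = 0.0187) but not called against fug1 (0.06 ± 0.27, adjusted p = 0.965). The malate synthase gene MLS rose by 2.26 ± 0.30, adjusted p = 2.85e-05. Of 17 genes of oil breakdown, 10 rose and 1 fell (median 0.61), among them the thiolase gene PKT3 (1.13 ± 0.26), LACS6 (0.92 ± 0.23) and PCK1 (0.98 ± 0.23), while the peroxisomal malate dehydrogenase gene PMDH2 fell (-0.85 ± 0.22). PKT3 lost its call without wild type 1 or 2 (adjusted p up to 0.0524) and PMDH2 without gun1 fug1 2 (0.0574). Higher genes numbered 4 without wild type 1, 6 without wild type 2, 5 without gun1 fug1 1 and 10 without gun1 fug1 3.

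The promoters of seed genes are known to carry the RY element, CATGCA, which B3 transcription factors of seed maturation bind. It lay within the 250 bases before the annotated start, on either strand, in 4 of the 6 tested seed genes and in 11 of 15 listed, against 8.43% of 27444 protein-coding genes. The stretches with the matches are shown for CRA1 and OLEO1 (TAIR10.1, strand of the gene), with the element in capitals, as CATGCA or as its complement TGCATG. A match is a description of the sequence and no measure of binding.
CRA1, chr5:17758475-17758537, minus strand, 201 to 139 bases upstream: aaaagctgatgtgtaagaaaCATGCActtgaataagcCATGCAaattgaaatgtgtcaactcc
OLEO1, chr4:12900285-12900375, plus strand, 145 to 55 bases upstream: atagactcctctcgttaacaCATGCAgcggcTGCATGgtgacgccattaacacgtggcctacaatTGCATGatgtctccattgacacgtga

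Root hair genes had the highest median of the 30 lists. Of 9 root hair genes tested 8 rose (median 4.15), beside 4 in gun1 and 7 in fug1. Without gun1 fug1 3, 8 of the 9 rose as well (median 4.26). SHV2 (AT5G49270), a COBRA-like protein that root hairs need to grow, had 3.26, 4.36 and 1.2 CPM in gun1 fug1 and 0.0792, 0.106 and 0.279 CPM in wild type and rose by 4.52 ± 0.61, adjusted p = 6.16e-05. MOP10 (3.92 ± 0.52), AGP3 (4.17 ± 0.69), an arabinogalactan protein, and the root hair expansin genes EXPA18 (5.29 ± 1.14) and EXPA7 (4.22 ± 1.13) rose too. The summed level of the 9 was 55.6, 81.8 and 39.6 CPM in gun1 fug1, against 2.14, 2.37 and 7.53 CPM in wild type, with 10.9, 28.6 and 70.0 CPM in gun1 and 47.1, 28.8 and 47.7 CPM in fug1. Of 14 other root genes 7 rose and 1 fell (median 2.04), beside 5 higher in gun1 and 9 in fug1. Without gun1 fug1 3, 9 of the 14 rose and 1 fell. Their summed level was 216, 212 and 146 CPM in gun1 fug1, against 169, 150.1 and 151 CPM in wild type, with 172, 164 and 218 CPM in gun1 and 185, 161 and 195 CPM in fug1. CYP86A1 (3.03 ± 0.43) and GPAT5 (2.88 ± 0.36), which make suberin, and the triterpene gene MRN1 (3.44 ± 0.45) rose, the abundant PYK10 had -0.12 ± 0.22, and the sodium transporter gene HKT1 fell, with 2, 1 and 0 counts in gun1 fug1 1, 2 and 3, against 28, 15 and 19 counts in wild type 1, 2 and 3. In wild type every root hair gene had a count in libraries 1 and 3 and 7 of 9 in library 2. Against the single mutants 0 of these 23 root genes were called. Root hair genes numbered 5 higher without wild type 1, wild type 2 or gun1 fug1 2, and root genes 4. In seedling RNA, a larger share of root in the sample and more RNA per root cell cannot be told apart, and the part of root or seed transcripts in the other differences was not tested.

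Among protein-coding genes outside the 7SL-related loci, a selection made after values were seen, the 10 largest rises under the same conditions, with the average of 50 counts or more taken over gun1 fug1 1 and 2, included root hair genes of the list above. Genes with fewer counts, such as SHV2, were not ranked. Among those ranked EXPA18 led, followed by G3Pp2 (4.84 ± 0.83), annotated as root hair specific 15, HRGP1 (4.68 ± 0.76), IRT2 (4.68 ± 0.80), a root iron transporter, and the extensin genes EXT4 (4.29 ± 0.39) and EXT3 (4.23 ± 0.67). EXPA7, PHT1;1 (4.18 ± 0.95), a phosphate transporter, AGP3 and SQP2 (3.96 ± 0.52) completed them. EXT4 (AT1G76930) had 7.43, 5.20 and 2.40 CPM in gun1 fug1 and 0.198, 0.264 and 0.446 CPM in wild type, and differed from gun1 (2.59 ± 0.35, adjusted p = 0.000176). The calls of EXPA18, EXPA7 and PHT1;1 each ended without wild type 1, wild type 2 or gun1 fug1 2, and that of EXPA7 also without gun1 fug1 1 (adjusted p up to 0.119).

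Copper/zinc superoxide dismutases, which remove superoxide, were higher in gun1 fug1. CSD2 (AT2G28190, chromosome 2, 12014412 to 12016569, plus strand), the plastid form, had 10.5, 14 and 7.20 CPM in gun1 fug1 1, 2 and 3, against 1.66, 1.27 and 1.67 CPM in wild type 1, 2 and 3. Every gun1 fug1 library was over 4 times the highest wild-type library, at 2.90 ± 0.27, adjusted p = 2.04e-07. It was also higher than in gun1 (2.14 ± 0.27, adjusted p = 0.000121) and in fug1 (1.98 ± 0.28, adjusted p = 0.000835). The cytosolic CSD1 rose by 1.55 ± 0.31 and their copper chaperone gene CCS by 1.35 ± 0.26, while the catalase gene CAT2 fell (-0.75 ± 0.24), a call that ended in 8 of 12 fits without 1 library (adjusted p up to 0.136), among them those without each wild-type library and without gun1 fug1 2. Without gun1 fug1 3, in whose fit more of the list was tested, 6 of these genes rose. With all libraries, 3 of 7 tested rose in gun1 fug1, beside 1 in gun1 and 4 in fug1. Of 9 tested genes of iron uptake and storage, 4 fell and 2 rose, with and without gun1 fug1 3. NAS4, which makes the iron chelator nicotianamine, had 0.303, 0.371 and 0 CPM in gun1 fug1 and 2.26, 1.27 and 1.39 CPM in wild type and fell, at -2.34 ± 0.52, adjusted p = 0.00259, and the E3 ligase gene BTS, which restrains the iron deficiency response, fell, at -1.65 ± 0.25, adjusted p = 9.17e-05. BHLH101 had 1 count in the 3 gun1 fug1 libraries together and overlaps GLU1, so its fold is left out, though it is among the 4. The ferritin gene FER3 rose (1.24 ± 0.34), beside IRT2, and FER1, another ferritin gene, was higher than in gun1 (1.25 ± 0.22, adjusted p = 0.00339). Without gun1 fug1 1, 2 iron genes fell, and without wild type 2 or gun1 fug1 2, 1 rose.

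Among 21 glucosinolate genes, 6 fell and 1 rose, with and without gun1 fug1 3. ESM1 (AT3G14210), which steers glucosinolate breakdown, had 0.910, 1.95 and 4.80 CPM in gun1 fug1 and 13.3, 10.4 and 10.7 CPM in wild type and fell, at -2.86 ± 0.34, adjusted p = 4.82e-06, and was lower than in gun1 (-2.51 ± 0.34, adjusted p = 0.000176) and fug1 (-1.79 ± 0.36, adjusted p = 0.0236). UGT74B1 (-0.95 ± 0.29) and SOT17 (-1.71 ± 0.56) of core structure synthesis fell, and CYP79B2 (1.03 ± 0.25), the entry to indole glucosinolates, rose. Lower genes numbered 3 without wild type 2, 2 without gun1 fug1 1 and 1 without gun1 fug1 2. UGT74B1 lost its call in each of these fits, and CYP79B2 without wild type 1 or gun1 fug1 1. Of 8 flavonoid genes, CHIL fell (-2.55 ± 0.40, adjusted p = 0.00012) and the chalcone synthase gene TT4 rose (0.82 ± 0.28, adjusted p = 0.0353), the second call ending without any 1 of the wild-type libraries, gun1 fug1 1 or gun1 fug1 2. Of 14 clock genes, 4 rose and 3 fell. GI (AT1G22770), which peaks in the evening, had 17.4, 19.4 and 16.8 CPM in gun1 fug1 and 4.75, 5.86 and 6.75 CPM in wild type and rose by 1.65 ± 0.21, adjusted p = 1.02e-05, with its partner ZTL at 1.23 ± 0.21, adjusted p = 0.000246, and the morning genes LNK2 (-1.42 ± 0.32), RVE8 (-1.65 ± 0.47) and LHY (-1.67 ± 0.54) fell, LHY only with gun1 fug1 3 in. Higher clock genes numbered 2 without wild type 1, wild type 2 or gun1 fug1 2, and lower ones 1 without wild type 1 or gun1 fug1 1. The labels give no hour of harvest. In the cold and dehydration list, LTI65 (RD29B; 2.74 ± 0.43, adjusted p = 0.000245) and LTI78 (RD29A; 1.45 ± 0.44, adjusted p = 0.0219) rose and KIN2 fell (-0.92 ± 0.28, adjusted p = 0.0215), the call of LTI78 ending without wild type 1, wild type 3 or gun1 fug1 1 (adjusted p up to 0.702), and that of KIN2 without wild type 3, gun1 fug1 1 or gun1 fug1 2 (up to 0.152). Of 7 genes of alternative respiration and mitochondrial stress, NDA1 fell (-0.85 ± 0.22, adjusted p = 0.00782), and AOX1A, the alternative oxidase, had -0.29 ± 0.33 with no call. Of the type-A response regulators of cytokinin, 7 were tested, among them RR3, which is set aside here for its 7SL-like reads. ARR4 (0.95 ± 0.22, adjusted p = 0.00394) and ARR3 (AT1G59940) rose. ARR9 fell (-1.77 ± 0.42, adjusted p = 0.0065, and 0.0689 without gun1 fug1 2). ARR3 had 1 count in the 3 wild-type libraries together and 10, 24 and 0 in gun1 fug1, and its fitted fold is left out.

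The double mutant was set against each single mutant with tests of its own. Against gun1, 248 genes were higher (1.61%) and 227 lower (1.48%), 3.09% in all. Without gun1 fug1 3 they were 481 (2.97%) and 339 (2.09%), 5.06% in all. Against fug1, 25 were higher (0.163%) and 16 lower (0.104%), 0.267% in all, and 59 (0.364%) and 57 (0.352%) without gun1 fug1 3, 0.716% in all. BCB (AT5G20230), a blue copper protein, was higher than in gun1 (3.90 ± 0.46, adjusted p = 6.38e-05) and fug1 (2.56 ± 0.43, adjusted p = 0.00513), with 3.41, 7.15 and 7.20 CPM in gun1 fug1 1, 2 and 3, against 1.15, 0.369 and 1.12 CPM in wild type 1, 2 and 3, and rose against wild type by 2.60 ± 0.39, adjusted p = 6.5e-05. CKX5 (AT1G75450), a cytokinin oxidase, had 1.44, 1.86 and 0 CPM in gun1 fug1 1, 2 and 3, against 6.73, 8.60 and 12.2 CPM in wild type 1, 2 and 3. It was lower than in gun1 (-2.61 ± 0.34, adjusted p = 0.000176) and in fug1 (-2.36 ± 0.35, adjusted p = 0.00122), where its levels were 10.04, 9.35 and 9.11 CPM and 5.03, 8.81 and 9.87 CPM. The overlapping UBC16 had 34.7% of its counts. GolS1 (AT2G47180), galactinol synthase, had 25.9, 15.6 and 18.0 CPM in gun1 fug1 and 3.41, 4.12 and 5.36 CPM in wild type and was higher than in fug1 (2.08 ± 0.25, adjusted p = 0.000175). Its locus overlaps ARF1A1C, which had 279.1% of its counts. PAR1 (AT2G42870), a shade response gene, had 10.5, 12.5 and 7.20 CPM in gun1 fug1 and 22.3, 37.6 and 45.1 CPM in wild type and was lower than in fug1 (-1.64 ± 0.27, adjusted p = 0.00505). The calls against fug1 of BCB and PAR1 ended without gun1 fug1 2 (adjusted p = 0.088) and without gun1 fug1 1 (0.0669). Those of BCB, CKX5, GolS1 and PAR1 against fug1 held without gun1 fug1 3, which was a condition for choosing these genes. Counts against gun1 were 160 higher genes without wild type 2, 107 and 84 (higher and lower) without gun1 1, 77 and 63 without gun1 2, 55 and 41 without gun1 fug1 1, and 139 and 94 without gun1 fug1 2, and 376 were lower without gun1 3. Against fug1 they were 12 and 8 without fug1 1, 11 higher without fug1 2, 11 and 9 without fug1 3, and 12 and 5 without gun1 fug1 1, and 32 were lower without gun1 3. With only gun1 fug1 and gun1 in the fit, 17 genes were higher and 15 lower.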

How the data were processed

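The deposited files hold raw counts of reads per gene, 36917 gene IDs in each library, made by the authors. Per the submitters' processing notes the tools were Trimmomatic, FastQC, TopHat2 2.1.1 and featureCounts, with the build TAIR10. Per the labels' protocols, total RNA was extracted with Trizol and column purified, and libraries followed an Illumina TruSeq protocol. Whether counting used the strand, and how reads of repeated or overlapping loci were assigned, is not given in the sources used here. Replicate numbers are those of the sample titles.

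From the deposited counts, edgeR 4.0.16 (R 4.3.3) fitted all 12 libraries together by quasi-likelihood with robust dispersion, after its default filter on low counts (15371 of 36917 genes kept) and TMM scaling, with genotype as the only term. Genes with a Benjamini-Hochberg adjusted p under 0.05 over all tested genes were called. A fold change is on the log2 scale, gun1 fug1 over the genotype it is set against, and its SE is the fold change divided by the square root of the F statistic. CPM were computed from the deposited counts with TMM-scaled library sizes. They are not divided by gene length and serve to compare libraries, not genes. The counts of called genes and 131 results for named genes were recomputed without gun1 fug1 3, without each other library, with DESeq2 1.42.0, with other filters and scalings, with only the genotypes compared in the fit, with an absolute log2 fold change of at least 1 as a further threshold, without organelle genes and with the replicate number as a block. Other printed values were recomputed only where the text says so. Genes and coordinates come from the RefSeq annotation of TAIR10.1, which held 36632 of the IDs. The 7SL-related loci were found with blastn 2.17.0, with the 7SL end of AT7SL-1 as the query.

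The members and gene lists were chosen with earlier results of these data known. The genes named are GUN1 and FUG1, the 10 largest rises and 10 largest falls called with and without gun1 fug1 3, up to 3 called members of each list with the smallest p and 1 that moved the other way, the 5 nuclear genes with the largest share of gun1 fug1 3, and 3 rises and 3 falls against each single mutant. These had a symbol, no overlap between genotypes and a mean of at least 50 counts where they came from the largest changes. The 10 largest protein-coding rises, the other 7SL-related and U2 loci, members without a call and further list members given as examples were added after their values were seen. Loci that overlap a named gene had 26.4% of the counts of HSP101, 25.9% of those of CLPB3, 29.7% of those of EXT3 and 57.8% of those of HSP93-III. All counts of overlapping loci were summed over the gun1 fug1 and wild-type libraries only.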

Additional observations from a re-analysis of the deposited data

How the results depend on the processing

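Of 131 results for named genes, 73 kept their direction and their side of the threshold in all 12 fits that left out 1 library and 58 did not. The precision of nuclear genes in gun1 fug1 3 is set by its 133975 counts outside the 7SL-related loci. Against wild type, 971 genes were higher with a stricter filter on low counts. Fits without 1 library gave 928 to 2349 higher and 708 to 1808 lower genes. Deviations from the genotype mean had r = 0.02, -0.08 and -0.06 between gun1 fug1 and wild-type libraries of the same number. The gun1 fug1 mean includes gun1 fug1 3, and the single mutants were not compared. Whether the numbers mark a pairing can therefore not be told from these values. With the replicate number as a block, 2052 genes were higher and 1842 lower than in wild type, and with the block but without gun1 fug1 3, 2829 and 2334. Against gun1 the block gave 384 and 414, and 859 and 697 without gun1 fug1 3. Against fug1 it gave 40 and 46, and 165 and 180 without gun1 fug1 3. Only gun1 fug1 1 correlated best with the wild-type library of its own number.

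Library totals in place of TMM, chosen after seeing the data, gave 43 higher and 131 lower genes against wild type, 3 and 2 against gun1, and 1 and 0 against fug1. Without gun1 fug1 3 as well, they gave 849 and 5794 against wild type and 2748 and 30 against fug1, with a median of all genes of -0.62 and 12.8% of called genes higher. With all libraries and library totals, GUN1 had -3.05 (adjusted p = 0.0732) and FUG1 -3.07 (0.0717), and neither passed. The direction reversed under library totals for LHCB4.3 (-0.40), PGK2 (-0.41), GSA1 (-0.20), GPRI1 (-0.61), PTAC5 (-0.33), HSP93-III (-0.46), cpHsc70-1 (-0.37), TIC110 (-0.60), TT4 (-0.27), psbC (-0.32), CYP79B2 (-0.022) and ARR4 (-0.12), and, without gun1 fug1 3 as well, for GPRI1 (-0.089) and TIC110 (-0.068). The median of all genes moved to -1.17 under library totals with all libraries, and every rise or fall in the report is relative to TMM scaling.

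Against gun1, 403 genes were higher and 391 lower with no filter, and 17 and 15 with only the 2 genotypes in the fit. Leaving out gun1 fug1 3, 412 were higher with DESeq2 and 460 with organelle genes left out. Without 1 library, 55 to 481 were higher and 41 to 376 lower. Against fug1, 92 were higher and 65 lower with no filter, and 44 lower with DESeq2. Leaving it out, 65 and 95 were called with DESeq2, and 52 and 25 with organelle genes left out. Without 1 library, 11 to 59 were higher and 5 to 57 lower. With the 7SL-related loci left out, an alternative added after seeing the data, 1669 genes were higher and 1690 lower than in wild type. The cause of these shifts was not tested.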
